A study of Rattus norvegicus with 8 samples.

Results

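The prostanoid and leukotriene pathway was followed through 10 genes that encode its enzymes and receptors in the rat carotid artery 2 weeks after intimal injury. The genes were taken by exact symbol from a table of read counts, and all 10 were among its 37209 genes. They comprise the cyclooxygenases Ptgs1 and Ptgs2, the synthases Ptgis, Tbxas1, Ptges and Ptgds, the receptors Ptgir and Tbxa2r, and the leukotriene genes Alox5 and Alox5ap. The animals were male Sprague-Dawley rats weighing 400 g on average, and no age was given. In the injured group, a balloon catheter was used to damage the inner layer of the left carotid artery, and 4 such arteries were harvested 2 weeks later. The control group held 4 right carotid arteries left undamaged, each described as the self-control of an injured animal. RNA came from the whole vessel, so smooth muscle, endothelium, adventitia and any infiltrating cells were measured together.

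Prostanoids are made from arachidonic acid, a fatty acid released from membrane lipids. Cyclooxygenases convert it to a short-lived intermediate, and each terminal synthase turns that intermediate into a different product with its own receptors. In arteries, prostacyclin from the vessel wall relaxes smooth muscle and restrains platelets, whereas thromboxane, made mainly by platelets and macrophages, constricts the vessel and activates platelets. Leukotrienes arise from the same fatty acid through 5-lipoxygenase and its activating protein, and are produced mainly by leukocytes.

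The libraries held between 11459632 and 16658089 counts, and the lowest level read as detected, 3 counts, lay between 0.18 and 0.262 CPM (the count divided by library size and scaled to a common total), which covers counting error only. The submitters' extraction text names a brain region, whereas 8 contractile smooth muscle genes summed to at least 10558 CPM in every artery. A list of 7 brain neuron and glia genes summed to 5.2 to 49.4 CPM in the controls and 9.87 to 204 CPM after injury. Most of the highest sums came from Gfap, which glia outside the brain can also express, at 196 CPM in injured artery 3 and 26.8 CPM in control artery 4, and Camk2a had 19.7 CPM in the latter. Neurod6 and Gad2 of that list had 0 to 2 counts per library. Control artery 4 stood apart. Across genes, its correlation in log2 CPM to each remaining control was 0.83 to 0.852, against 0.976 to 0.978 among those. A list of 8 sympathetic neuron marker genes summed to 9002 CPM in control artery 4 and 1395 CPM in injured artery 3, against 2.39 to 113 CPM in the other arteries. The smooth muscle genes summed to 17429 CPM in control artery 4, against 37309 to 50551 CPM in the other controls.

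Of the 10 genes, 4 rose after injury and 1 fell. Tbxas1 was 5.52-fold higher, Ptgir 5.7-fold, Alox5ap 2.72-fold and Alox5 2.09-fold, and Ptgs1 was 2.14-fold lower. Ptgs2, Ptgis, Ptges, Ptgds and Tbxa2r were not called. A gene was called at a false discovery rate under 0.05 together with a fold change above 2 by the quasi-likelihood F test of edgeR, p-values being adjusted by Benjamini and Hochberg's method over the 14359 genes that passed a filter on low counts. All 10 genes passed that filter. By the same rule, 10.9% of all genes tested were called, comprising 8.31% called higher and 2.57% called lower. Every injured artery lay above every control for 4 of the 10 genes and below every control for 0, against 14.2% and 9.51% of all genes tested, 23.7% together. The median log2 fold change of the 10 genes was 0.16, with 5 of 10 positive, against -0.06 over all genes tested. Because these are whole arteries, fewer cells of a type and less RNA per cell cannot be told apart.

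**Figure D1:**
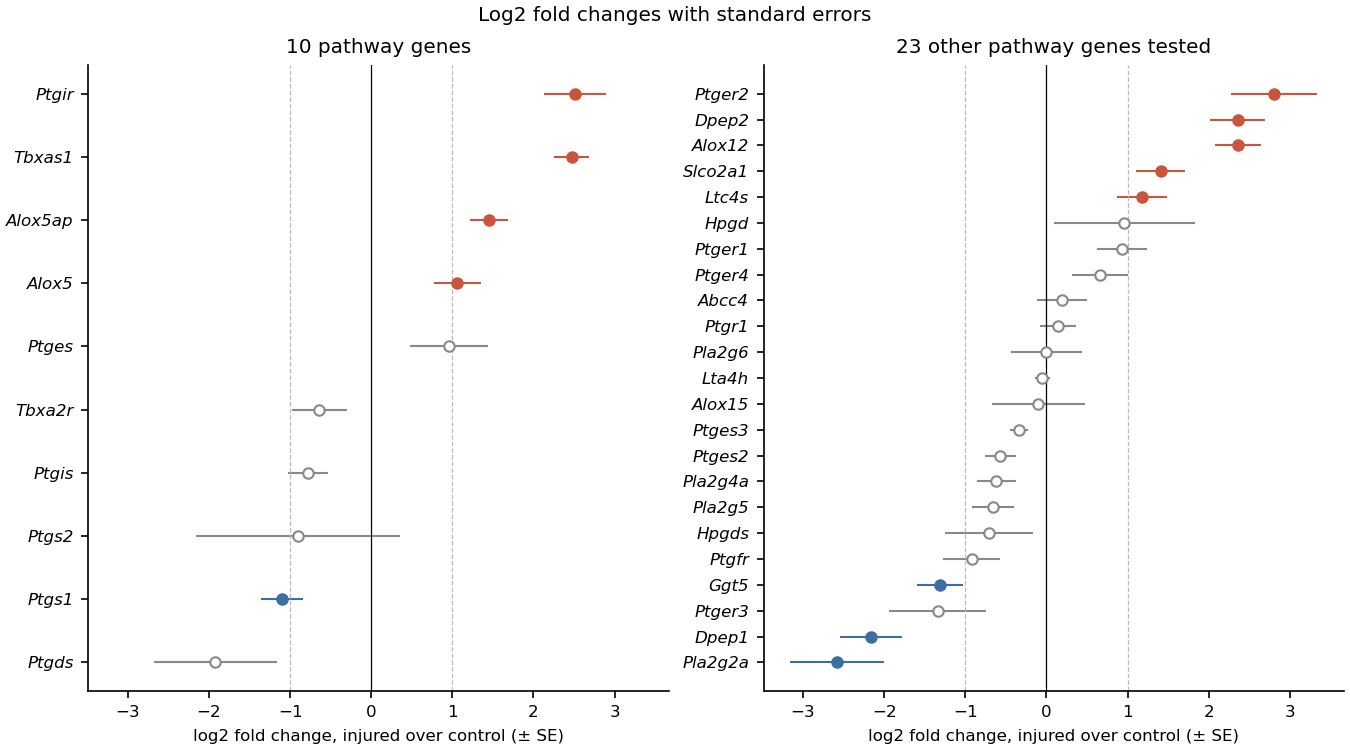
Log2 fold change of injured over control arteries on the horizontal axis with its standard error, for the 10 pathway genes on the left and the 23 other pathway genes tested on the right. Red points are called higher after injury, blue points called lower, and open grey points not called. Dashed lines mark a fold change of 2, and the 10 genes spread from -1.92 for Ptgds to 2.51 for Ptgir.

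Ptgs1, the constitutive cyclooxygenase, fell after injury. Its level in control arteries 1 to 4 was 114, 106, 91.8 and 51.4 CPM, and in injured arteries 1 to 4 it was 43.4, 41.3, 32.5 and 52.2 CPM. Controls 1 to 3 lay above every injured artery, and control artery 4 lay among them. The mean dropped from 90.8 ± 27.9 to 42.4 ± 8.08 CPM (SD, n = 4 each), and the log2 fold change was -1.10 ± 0.26 (SE, edgeR adjusted p = 0.0225). Without control artery 4 the log2 fold change was -1.30 (edgeR adjusted p = 0.00105), and without injured artery 4 it was -1.22 (edgeR adjusted p = 0.0442). Ptgs1 was no longer called when any one of control arteries 1, 2 and 3 or injured arteries 1, 2 and 3 was left out, at edgeR adjusted p from 0.0515 to 0.0714. With library totals in place of normalization factors, the log2 fold change of Ptgs1 was -0.91 and missed the fold threshold. That scaling moved the median of all genes by 0.17 on the log2 scale. With the replicate number as a block, Ptgs1 was at -1.07 and not called (edgeR adjusted p = 0.0891).

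Ptgs2, the inducible cyclooxygenase and an immediate early gene in many cells, was not called and varied widely between arteries of each group. The control arteries had 345, 274, 22.2 and 24.5 CPM, and the injured arteries had 279, 54.2, 12.1 and 10.7 CPM. Control arteries 1 and 2 and injured artery 1 were high, and the groups overlapped over most of their range. Each injured artery was below the control artery with its own number. The log2 fold change of -0.90 carried an SE of 1.26 (edgeR adjusted p = 0.67). No fit that left out an artery called Ptgs2, although its log2 fold change ranged from -2.70 without injured artery 1 to -0.27 without control artery 1. With the replicate number as a block it was -1.17 (edgeR adjusted p = 0.108).

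Across the 8 arteries, the 2 genes whose log2 CPM was most like that of Ptgs2 were Nr4a3, with a Pearson correlation of 0.992, and Cyr61, with 0.988. Nr4a3 encodes an orphan nuclear receptor and Cyr61 a matricellular protein, and both are known as immediate early genes. Nr4a3 had 272, 259, 25.1 and 29.7 CPM in control arteries 1 to 4. In injured arteries 1 to 4 it had 164, 49.8, 11.3 and 12 CPM. Cyr61 had 3065, 1743, 500 and 421 CPM in the controls and 2049, 666, 288 and 234 CPM in the injured arteries. In all of these genes the arteries numbered 1 and 2 were above those numbered 3 and 4 of their own group, and each injured artery was below the same-numbered control. Neither Nr4a3 nor Cyr61 was called, at edgeR adjusted p of 0.463 and 0.561.

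**Figure D2:**
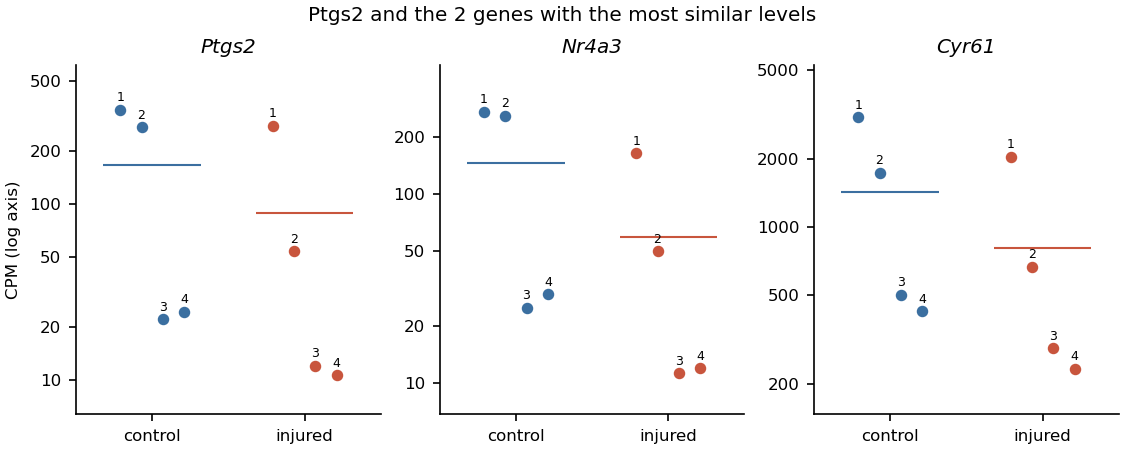
Level in CPM on a log axis of Ptgs2, Nr4a3 and Cyr61 in each artery, with the artery's number beside its point and a bar at the arithmetic mean of the 4 arteries. In each panel, arteries 1 and 2 of a group lie above arteries 3 and 4, and the groups overlap.

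The promoter of Ptgs2 carried a palindromic E-box, CACGTG, a site bound by basic helix-loop-helix proteins. Promoter sequences of 300 bases, 250 before the annotated start and 50 after it, came from RefSeq on build GRCr8 and were found for 8 of the 10 genes, Ptgis and Alox5ap having no entry. CACGTG occurred in 6.65% of all 27457 such promoters and, among the 8, in that of Ptgs2 alone. The window below lies on the plus strand at chr13:64713996-64714025, the first base of the site being 55 bases before the start, and is shown because Ptgs2 was the gene that tracked immediate early genes. Capitals mark the E-box.
Ptgs2: cagtcacgaagtCACGTGgagtccacttta

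Among the terminal synthases, Tbxas1 rose while Ptgis, Ptges and Ptgds did not pass the test. Tbxas1, thromboxane synthase, had 2.02, 2.46, 3.12 and 2.08 CPM in control arteries 1 to 4 and 12.1, 12.5, 12.3 and 16.8 CPM in injured arteries 1 to 4. The lowest injured artery was far above the highest control. The mean rose from 2.42 ± 0.505 to 13.4 ± 2.25 CPM (SD, n = 4 each), and the log2 fold change was 2.47 ± 0.22 (SE, edgeR adjusted p = 0.000456). Tbxas1 was called in all 8 fits that left out one artery, with log2 fold changes between 2.34 and 2.61.

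Ptgis, prostacyclin synthase, had 470, 464, 496 and 219 CPM in the control arteries and 249, 238, 205 and 268 CPM in the injured arteries. Controls 1 to 3 were above every injured artery, and control artery 4 was below all but injured artery 3. The log2 fold change was -0.78 ± 0.25 (SE, edgeR adjusted p = 0.0718). Without control artery 4 it was -0.99 (edgeR adjusted p = 0.00067), which met the threshold for the false discovery rate and fell just short of that for the fold change.

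Ptges, the inducible prostaglandin E synthase, was low throughout, with 7 to 59 counts per library. It had 1.08, 2.3, 1.04 and 0.486 CPM in the controls and 3.53, 1.6, 1.68 and 2.7 CPM in the injured arteries, and control artery 2 lay within the injured range. Its log2 fold change was 0.96 ± 0.48 (SE, edgeR adjusted p = 0.221). Ptgds, a prostaglandin D synthase that is also a lipid carrier protein, was lower still in several arteries, with 1 to 54 counts. Its 0.72, 1.23, 1.87 and 3.75 CPM in the controls overlapped with the 0.897, 0.0725, 0.786 and 0.164 CPM of the injured arteries, where arteries 2 and 4 were under the limit of 3 counts. Its log2 fold change was -1.92 ± 0.76 (SE, edgeR adjusted p = 0.13), and the highest value was that of control artery 4.

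Of the receptors, Ptgir rose and Tbxa2r was not called, and the difference between their changes was not tested. Ptgir, the prostacyclin receptor, had 1.66, 1.07, 0.832 and 0.556 CPM in the control arteries and 6.28, 4.86, 4.32 and 8.1 CPM in the injured arteries. All injured arteries were well above all controls. Its mean rose from 1.03 ± 0.468 to 5.89 ± 1.69 CPM (SD, n = 4 each), and the log2 fold change was 2.51 ± 0.38 (SE, edgeR adjusted p = 0.00366). The control libraries held 8 to 23 counts of Ptgir, so its fold change rests on few reads there. It was called in all 8 fits that left out one artery, between 2.30 and 2.83.

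Tbxa2r, the thromboxane receptor, had 25.8, 19.3, 25.8 and 9.38 CPM in the control arteries and 11, 12.6, 9.94 and 17.8 CPM in the injured arteries. Controls 1 to 3 were above all injured arteries, and control artery 4 was below all of them. Its log2 fold change was -0.64 ± 0.34 (SE, edgeR adjusted p = 0.237). Without control artery 4 the log2 fold change was -0.89 at an edgeR adjusted p of 0.0194, which did not reach a fold change of 2.

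**Figure D3:**
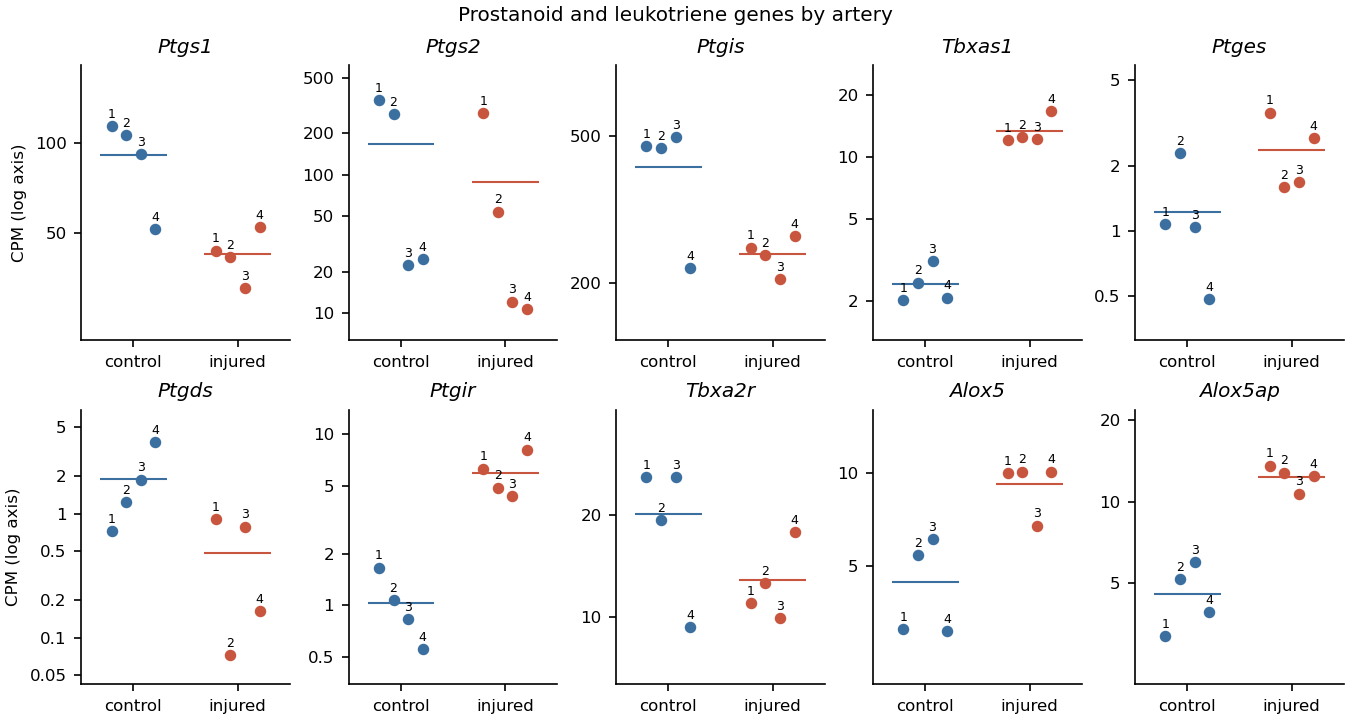
Level in CPM on a log axis of each of the 10 genes in the 4 control and 4 injured arteries, with the artery's number beside its point and a bar at the arithmetic mean. Tbxas1, Ptgir, Alox5 and Alox5ap separate the groups completely, and control artery 4 lies at or near the injured level for Ptgs1, Ptgis and Tbxa2r.

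The leukotriene genes of the list rose together. Alox5 encodes 5-lipoxygenase, and Alox5ap encodes the membrane protein that presents arachidonic acid to it. Alox5ap had 3.17, 5.17, 5.96 and 3.89 CPM in the control arteries and 13.6, 12.8, 10.7 and 12.4 CPM in the injured arteries. Its mean rose from 4.55 ± 1.25 to 12.4 ± 1.25 CPM (SD, n = 4 each), and the log2 fold change was 1.45 ± 0.23 (SE, edgeR adjusted p = 0.0047). Alox5ap was called in all 8 fits that left out one artery, between 1.30 and 1.60.

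Alox5 had 3.1, 5.41, 6.1 and 3.06 CPM in the control arteries and 9.99, 10.1, 6.74 and 10.1 CPM in the injured arteries. The groups did not overlap, but injured artery 3 was close to control artery 3. The mean rose from 4.42 ± 1.57 to 9.24 ± 1.67 CPM (SD, n = 4 each), and the log2 fold change was 1.06 ± 0.29 (SE, edgeR adjusted p = 0.0403). The call of Alox5 was less firm than that of Alox5ap. It held without control artery 3 and without injured artery 3, at 1.25 and 1.18. It was lost without control artery 4, where the log2 fold change of 0.92 missed the fold threshold at an edgeR adjusted p of 0.0435. Without control artery 1 or 2, or injured artery 1, 2 or 4, the adjusted p of Alox5 was between 0.0662 and 0.113 in edgeR's test. With the replicate number as a block, Alox5 was at 1.11 and not called (edgeR adjusted p = 0.113).

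The balance between genes was also examined as the ratio of counts within an artery, which does not depend on how libraries are scaled. The ratio of Tbxas1 to Ptgis was 0.00437, 0.00539, 0.00636 and 0.00966 in control arteries 1 to 4 and 0.0486, 0.0525, 0.0602 and 0.0628 in injured arteries 1 to 4. Transcript lengths differ, so the ratio itself has no meaning as a number of molecules, but its change does not depend on them. It was 9.04-fold higher after injury, a difference of 3.18 in mean log2 ratio, and all injured arteries were above all controls. The exact two-sided permutation test over 70 relabellings gave p = 0.0286, the smallest that 4 arteries against 4 allow. Adjusted over the 3 ratios tested, this exact p was 0.0857 and above 0.05.

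The ratio of Ptgs2 to Ptgs1 was 3.03, 2.58, 0.242 and 0.477 in the controls and 6.43, 1.31, 0.372 and 0.206 in the injured arteries. It spanned more than an order of magnitude within each group, and the groups differed by -0.12 in mean log2 ratio (exact permutation p = 0.914, adjusted 0.914). The ratio of Alox5ap to Alox5 was 1.02, 0.955, 0.977 and 1.27 in the controls and 1.36, 1.27, 1.58 and 1.22 in the injured arteries, a difference of 0.37 in mean log2 ratio (exact permutation p = 0.0571, adjusted 0.0857). Control artery 4 had the highest Alox5ap to Alox5 ratio of the controls, and without it the difference was 0.46 (exact permutation p = 0.0286).

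**Figure D4:**
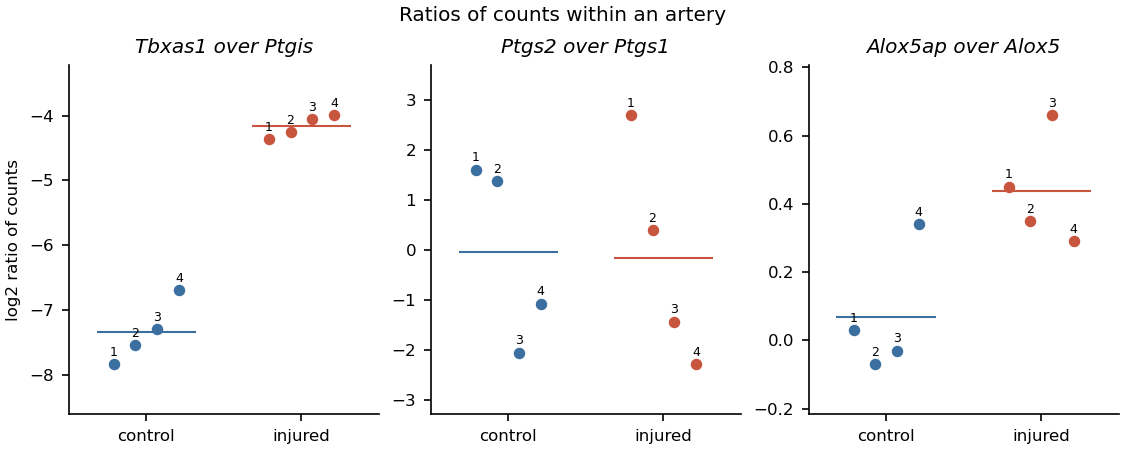
Log2 ratio of counts of 2 genes within each artery, for Tbxas1 over Ptgis, Ptgs2 over Ptgs1 and Alox5ap over Alox5, with the artery's number beside its point and a bar at the mean. Only in the first panel are the groups apart, from -7.84 to -6.69 in the controls and from -4.36 to -3.99 in the injured arteries.

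The rest of the pathway was read from a list of 31 further genes, of which 23 passed the filter. Of these, 5 rose, 3 fell and 15 were not called, against 8.31% called higher and 2.57% called lower among all genes tested. For 6 of the 23 genes every injured artery lay above every control, and for 4 below. Among all genes tested these shares were 14.2% and 9.51%. The median log2 fold change of the 23 genes was -0.05. The 8 genes whose counts were too low for the test had at most 11 counts in any library. Whether those counts reflect low levels or how reads were assigned to genes was not tested.

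Among 4 phospholipases that release arachidonic acid, Pla2g2a fell. Pla2g2a, the secreted group IIA enzyme, had 6.05, 17.4, 22.7 and 7.92 CPM in the controls and 1.26, 4.5, 1.97 and 1.31 CPM in the injured arteries, without overlap. Its log2 fold change was -2.58 ± 0.58 (SE, edgeR adjusted p = 0.0198). Pla2g2a was no longer called without control artery 2 or 3 or without injured artery 1 or 4, at edgeR adjusted p from 0.0526 to 0.07. The cytosolic enzyme Pla2g4a had a log2 fold change of -0.62 (edgeR adjusted p = 0.121).

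None of the 3 further prostanoid synthases tested was called by edgeR. Of these, 2 had an unadjusted edgeR p under 0.05, as did 4471 of the 14359 genes tested. DESeq2 gave Ptges2 and Ptges3 adjusted p of 0.033 and 0.0349, but neither reached a fold change of 2, and it called none of the 3. Ptges3, which is also the p23 co-chaperone of Hsp90, went from 141 ± 16.9 to 111 ± 1.79 CPM (SD, n = 4 each), and the log2 fold change was -0.34 (edgeR adjusted p = 0.075).

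Of 7 further prostanoid receptors, 5 were tested and Ptger2 rose. Ptger2, a receptor for prostaglandin E2 that raises cyclic AMP, had 0.216, 0.164, 0.485 and 0.417 CPM in the controls and 1.02, 3.77, 1.74 and 2.78 CPM in the injured arteries. Its log2 fold change was 2.81 ± 0.53 (SE, edgeR adjusted p = 0.00962), and it was called in all 8 fits that left out one artery. The control libraries were near the limit of 3 counts for this gene, so the size of the change is poorly known. Slco2a1, the transporter that takes prostaglandins into cells, rose from 18.1 ± 3.48 to 48.3 ± 21.8 CPM (SD, n = 4 each), and the log2 fold change was 1.41 (edgeR adjusted p = 0.0163). Injured artery 4 was highest for Slco2a1 at 80.5 CPM, and the rest had 34.4 to 42.3 CPM, still above the highest control at 20.5 CPM. Slco2a1 was called in all 8 fits that left out one artery.

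In the later steps of leukotriene synthesis, enzymes of one branch went in opposite directions. Lta4h, the hydrolase that makes leukotriene B4, was at 52.9 ± 3.94 CPM (SD, n = 4) in the controls and 51 ± 1.57 CPM (SD, n = 4) after injury, with a log2 fold change of -0.05 and a standard error of 0.09. Ltc4s, which makes the first cysteinyl leukotriene, rose from 1.43 ± 0.318 to 3.24 ± 1.14 CPM (SD, n = 4 each), and the log2 fold change was 1.18 (edgeR adjusted p = 0.0348). The call of Ltc4s held without control artery 4 or without injured artery 3 and was lost without any of the other 6 arteries, at edgeR adjusted p from 0.0601 to 0.0866. It was also lost with the replicate number as a block (edgeR adjusted p = 0.0987).

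Ggt5, a transferase that trims that leukotriene, fell from 58.5 ± 20.5 to 23.6 ± 4.73 CPM (SD, n = 4 each), and the log2 fold change was -1.31 (edgeR adjusted p = 0.0164). Without injured artery 2 or 4, Ggt5 was not called, at edgeR adjusted p of 0.0569 and 0.0595. The dipeptidases Dpep1 and Dpep2, which can both carry out the next cleavage, were called in opposite directions. Dpep1 had 18.4, 19.8, 21.3 and 6.12 CPM in the controls and 3.71, 3.48, 4.44 and 3.03 CPM in the injured arteries, a log2 fold change of -2.16 ± 0.38 (SE, edgeR adjusted p = 0.00717). Dpep2 had 2.16, 2.05, 1.73 and 1.39 CPM in the controls and 13, 4.57, 9.38 and 10.9 CPM in the injured arteries, a log2 fold change of 2.36 ± 0.34 (SE, edgeR adjusted p = 0.00314). Neither dipeptidase overlapped between the groups, and both were called in all 8 fits that left out one artery.

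None of the 4 leukotriene receptors could be tested. Ltb4r had 3 to 11 counts per library, Cysltr2 at most 6 and Ltb4r2 at most 1. Cysltr1 had 0 in every library, which allows a level of up to 0.262 CPM if its reads were counted at all. Alox12, the platelet-type lipoxygenase, rose from 1.08 ± 0.335 to 5.56 ± 0.919 CPM (SD, n = 4 each), and the log2 fold change was 2.36 ± 0.28 (SE, edgeR adjusted p = 0.0014). Alox12 was called in all 8 fits that left out one artery.

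Markers of several cell types moved between the groups as well, and which cells carried the pathway genes was not measured. Of 11 macrophage genes, 10 rose, and their sum was 191 to 260 CPM in the controls and 814 to 1083 CPM in the injured arteries. Cd163 was the exception, with a log2 fold change of 0.09 (edgeR adjusted p = 0.866). The part of these cells in the higher Tbxas1, Alox5, Alox5ap, Ltc4s and Dpep2 was not tested. Of 8 contractile smooth muscle genes, 5 fell, and their sum was 10558 to 16609 CPM after injury, against 17429 CPM in control artery 4 and 37309 CPM or more in the other controls. Ptgs1, Ptgis, Tbxa2r, Ggt5 and Dpep1 were lowest among the controls in that same artery. So were Ptgir, Alox5, Ltc4s and Dpep2, which rose after injury, and Ptges, which was not called. The endothelial, fibroblast, platelet, T cell and skeletal muscle sums given below were also lowest among the controls there. The part of smooth muscle in the levels of Ptgs1, Ptgis, Tbxa2r, Ggt5 and Dpep1 was not tested either.

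For the other marker lists, 7 endothelial genes summed to 790 to 2102 CPM in the controls and 687 to 987 CPM after injury, where 3 rose and Vwf fell. Of 6 platelet genes, 2 could be tested and neither was called, with Itga2b at a log2 fold change of 0.32 (edgeR adjusted p = 0.623) and Pf4 at 1.06 (edgeR adjusted p = 0.115), and Gp1ba, Gp9, Ppbp and Tubb1 had at most 5 counts in any library. The platelet sum was 5.28 to 18.3 CPM in the controls and 18.8 to 26.5 CPM after injury. Mast cell genes, 8 in number of which 3 were tested, summed to 9.87 to 17 CPM in the controls and 15.4 to 28.6 CPM after injury, with Mcpt1 at 0. Of 7 neutrophil genes, S100a9 and Csf3r rose, while S100a8, Ltf, Elane and Ngp had at most 10 counts in any library. Mpo, also too low for the test, had 0.432, 4.92, 1.8 and 4.86 CPM in the controls and 0.179, 0, 0.505 and 0.409 CPM after injury. The neutrophil sum was 1.66 to 5.91 CPM in the controls and 7.45 to 23.2 CPM after injury.

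Fibroblast genes, 6 in number with 1 higher and 2 lower, summed to 1872 to 3695 CPM in the controls and 1907 to 3246 CPM after injury. Of 6 T cell genes, Cd4 and Cd2 rose, and the sum of all 6 was 18.5 to 37.5 CPM in the controls and 125 to 158 CPM after injury. Most of that sum was Cd4, at 18 to 31.4 CPM in the controls and 117 to 145 CPM after injury. Cd3e, Cd3d, Cd3g and Cd8a were not called, at edgeR adjusted p from 0.141 to 0.28. Of 6 skeletal muscle genes, 4 rose, and their sum was 82.8 to 252 CPM in the controls and 212 to 824 CPM after injury. The sums of 5 adipocyte genes were 81.1 to 688 CPM and 118 to 308 CPM, and those of 6 Schwann cell genes 55.5 to 617 CPM and 263 to 1230 CPM, overlapping between the groups.

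**Figure D5:**
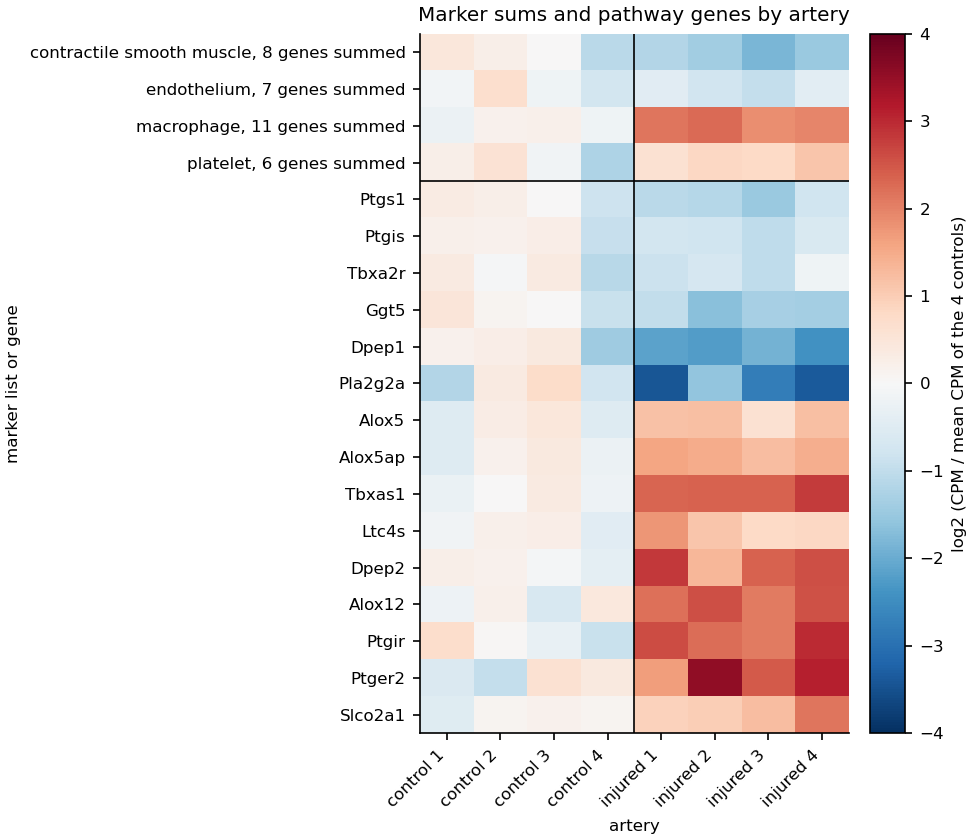
Level of 4 summed marker lists and 15 pathway genes in each artery as log2 of the CPM over the mean CPM of the 4 controls, red for higher and blue for lower. Control artery 4 is blue like the injured arteries for the contractile smooth muscle sum, Ptgs1, Ptgis, Tbxa2r, Ggt5 and Dpep1, and pale like the other controls for the macrophage sum, Tbxas1 and Alox5ap.

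The genes most like each of the others over the 8 arteries were also listed, as a description in which the difference between the groups weighs heavily. Ptgs1 was most like Tgm2, a transglutaminase, at a correlation of 0.990, and Kcnmb1, a potassium channel subunit of smooth muscle, at 0.986, and both of these fell. Ptgis was most like Zak at 0.996, and Tbxa2r most like Edc4 at 0.995 and Mcfd2 at 0.990, none of which was called. Tbxas1 was most like Shcbp1 and Dnm2, both at 0.998, of which Shcbp1 rose, with a log2 fold change of 3.22. Alox5ap was most like Clec10a, a lectin of macrophages and dendritic cells, at 0.993 and the cytokine receptor Il21r at 0.991, and both rose. Alox5 was most like Cd8b at 0.985 and Tead4 at 0.983, and both rose, although Cd8b was at 0 in control arteries 1 and 4. Ptgir was most like Phlda1 at 0.993 and Plxnd1 at 0.989, which also rose. The low genes Ptges and Ptgds had lower best correlations, 0.957 with Cd3d and 0.982 with Cab39l, followed by Dock6 at 0.955 and Gtf3c3 at 0.974.

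The promoters were also searched for GAGGAA, the core of the site bound by PU.1, the ETS factor of myeloid cells, on both strands. It was present in 4 of the 8 promoters, those of Ptgs1, Ptges, Tbxas1 and Ptgir, and in 27.5% of all 27457 promoters. The holders include Tbxas1 and Ptgir, which rose, Ptgs1, which fell, and Ptges, which was not called. Their windows are shown because they set genes that moved in different directions side by side, with the match in capitals, read along the gene as GAGGAA or as its reverse complement TTCCTC. They lie at chr3:39981305-39981334 on the plus strand for Ptgs1, chr3:34587142-34587171 on the minus strand for Ptges, chr4:68631635-68631664 and chr4:68631817-68631846 on the plus strand for Tbxas1, and chr1:86707587-86707616 on the plus strand for Ptgir, all on GRCr8.
Ptgs1: aaggctggagcaGAGGAAgttggcggttgg
Ptges: gggacacctccaTTCCTCtgcttcccccgg
Tbxas1, first match: tctctGAGGAAtggttattagaggagcagt
Tbxas1, second match: ccctctgcttccTTCCTCtttatagagaaa
Ptgir: cagagaggcttaGAGGAAgggaccggggca
A match to these letters is a description of the sequence and not a measured binding site.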

How the data were processed

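mRNA was sequenced from 4 injured and 4 control carotid arteries. The authors deposited raw counts per gene symbol, 1 column per artery, without normalization. The submitters' processing notes name HISAT2 2.0.4. The counting tool, genome build, annotation and strand setting are not given in the sources used here, so genes that overlap or have near copies are uncertain.

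From these counts, edgeR 4.0.16 in R 4.3.3 removed genes with low counts (filterByExpr), computed TMM factors, and compared the groups with the quasi-likelihood test without a covariate. Calls required a false discovery rate under 0.05 and a fold change above 2, the study's criteria. The SE of a log2 fold change is its size over the root of F. CPM uses the TMM factors, and the limit of 3 counts uses library totals. Ratios had 0.5 count added to each gene. P-values measure the spread between these 8 arteries. The edgeR step was tested on simulated data. The members, lists and tests were chosen with earlier results of these data known. Genes named are the 10 members, the called genes of the wider list, its 3 uncalled genes with the highest mean CPM, and the 2 genes most correlated with each member. One gene that this rule names is not reported here. Other pathway genes were named after their values were seen, as were the markers. Adgre1 was matched by its older symbol Emr1. The alternatives were DESeq2 1.42.0, other scalings, filters and thresholds, the replicate number as a block, and leaving out each artery. Leaving out control artery 4 and injured artery 3 together was added after seeing the data. Gene coordinates are not used apart from those of the printed promoter windows.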

Additional observations from a re-analysis of the deposited data

Results flagged for a closer look

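The distance from an extreme artery to its closest neighbour, divided by the spread of its group, passed the 95% limit of Dixon's test in 5 of 48 groups of 4 arteries examined for the named genes, and about 2.4 would pass by chance. This quotient was 0.838 for Ptgs2 in injured artery 1, at 279 CPM against 54.2 CPM in the nearest injured artery. It was 0.885 for Ptgis in control artery 4, at 219 against 464 CPM. Tbxas1 gave 0.916 in injured artery 4, at 16.8 against 12.5 CPM, and that artery lay farther from the controls than the others did. Alox5 gave 0.954 in injured artery 3, at 6.74 against 9.99 CPM, the artery nearest to the controls. Slco2a1 gave 0.869 in control artery 1, at 13 against 19.5 CPM. No explanation was tested for these.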

How the results depend on the processing

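Of 320 log2 fold changes of 18 named genes recomputed under the alternatives, 0 changed sign, 282 stayed on the same side of the call and 38 lost it, 0 gaining it. These 18 are the 10 members and the genes of the wider list already called. Outside them, the receptor gene Ptgfr gained a call without control artery 4 or injured artery 2. Ptger1 gained one with library totals, and Ptger3 without control artery 4 and injured artery 3 together. Tested against a fold change of 2, 2 of the 10 genes were called higher (Tbxas1 and Ptgir) and 0 lower, and of the wider list 3 were called higher and 0 lower. The number called lower among the 10 was 0 with library totals only and 0 with the replicate block. With one artery left out, 3 to 4 of the 10 genes were called higher and 0 to 1 lower, and of the wider list 4 to 5 higher and 1 to 4 lower, with 1 lower without injured artery 4. The difference in mean log2 ratio of Ptgs2 to Ptgs1 turned from -0.12 to 0.43 without control artery 1, 0.35 without control artery 2, 0.30 without injured artery 3 and 0.59 without injured artery 4, spanning -1.07 to 0.59 over all omissions. That of Alox5ap to Alox5 was 0.29 to 0.46, and that of Tbxas1 to Ptgis 3.01 to 3.39. Why these values moved, the cause, was not tested.

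With the replicate block, that is the replicate number as a block in the edgeR fit, Ptgs1 (adjusted p = 0.0891) and Alox5 (adjusted p = 0.113) were no longer called, nor was Ltc4s (adjusted p = 0.0987), while Tbxas1, Ptgir and Alox5ap were. Ptgs2 was at -1.17 in that fit (edgeR adjusted p = 0.108). For Tbxas1 over Ptgis, the sign flips within same-numbered arteries gave a difference of 3.18 with an exact permutation p of 0.125, the smallest that 4 pairs allow. The study calls the controls self-controls but does not say that equal numbers mark one animal. After subtraction of group means, same-numbered arteries correlated at 0.301, 0.45, -0.52 and -0.416 for replicates 1 to 4, and 2 of 4 injured arteries correlated best with their own number. Over 20 RT1 genes (the rat histocompatibility complex) these correlations averaged 0.485, with 0.283 the lowest, and the average ranked 1 of the 24 possible pairings. The RT1 genes thus favour the pairing by number, which the values over all genes do not show, and the fit without the block is kept as the main one. Over all genes, control artery 4 correlated best with injured artery 3, at 0.784, and both had high sympathetic neuron sums. Whether those sums set the values over all genes was not tested. Without control artery 4 and injured artery 3, the 4 genes called higher and Ptgs1 were all called. Low counts limit what can be read from the 8 genes not tested and from Ptges, Ptgds and Ptger2, among others.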
